A study of Mus musculus with 15 samples.

Results

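Arrays of stimulated A.E7 cells treated with a PKC inhibitor (PKCi) were set against arrays of stimulated cells treated with rapamycin, PD98059 and SB203580 together (Combo), and 6 of the 15 arrays of the series belong to these arms. A.E7 is a mouse CD4 T helper cell clone. Both arms received anti-TCR, an antibody against the T cell receptor, so by the labels they differ only in the added inhibitors. The members were chosen by array title, not by any measured value. Each arm has 3 arrays, 1 of each of chip types A, B and C, which are oligonucleotide arrays that read different probe sets. All 3 arrays of an arm carry RNA that the labels describe as pooled from 2, 4 and 6 h of stimulation. The mock-stimulated arrays and the arrays with anti-TCR alone, titled Anergic, served as references on the same chip types. The labels give neither the name of the PKC inhibitor nor any dose. All cells come from 1 clone, and 1 array per treatment and chip type leaves no replicate, so no test could be run and precision is limited by the small number of arrays.

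Protein kinase C (PKC) is switched on in T cells by diacylglycerol, a lipid released when the T cell receptor is engaged. PKC-theta passes the signal on to the transcription factor NF-kB, and diacylglycerol also reaches the Ras, MEK and ERK kinases through Rasgrp1, which PKC phosphorylates. The Combo drugs act on other kinases. Rapamycin binds Fkbp1a and blocks the mTOR complex that controls growth and translation, PD98059 blocks MEK activation and with it ERK, and SB203580 blocks p38, a stress kinase that also governs mRNA stability. The comparison therefore sets a block at PKC beside a joint block of mTOR, MEK and p38.

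The values are linear array intensities. A gene was read on its brightest probe set, and it counted as measured if the brighter of the compared values reached 4 times the chip type's median, which also served as the floor. A gene is called higher in 1 arm if its intensity there was at least 2-fold that in the other. Of 15964 genes on the arrays, 5606 were measured. The median log2 ratio of PKCi to Combo over these was 0.03, with the middle 50% between -0.29 and 0.33. Where a gene had probe sets on more than 1 chip type, their log2 ratios varied with a technical SD of 0.50 per probe set, over 1110 pairs. Of the 10 markers of CD4 T cells on the arrays, 8 were measured and 0 differed 2-fold. Their summed intensity was 7501 with PKCi and 9295.6 with Combo, and the CD4 co-receptor itself read 597.5 and 879.6. None of the 11 B cell markers was measured and none of the 10 erythroid and neutrophil markers, and Cd8a read 3.2 and 2.6. Of 8 CD8 and natural killer cell markers, 4 killer lectin receptor genes were measured, such as Klrd1 at 2243.9 and 1947.9, and of 16 macrophage and dendritic markers only Cd14 and Cx3cr1 were. In bulk RNA, fewer cells of a type and less RNA per cell cannot be told apart.

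Directly compared, the arms differed at least 2-fold for 497 genes, 8.87% of those measured. With PKCi 274 genes (4.89%) were lower than with Combo, and 223 (3.98%) were higher. Counted over all 8486 measured probe sets, named or not, 459 (5.41%) were lower and 352 (4.15%) higher, 9.56% in all. The numbers were close at 2-fold, but large differences lay mostly on 1 side. At 4-fold or more, 70 genes were higher with Combo and 17 with PKCi, and at 8-fold or more the counts were 20 and 3. At 16-fold or more, 8 genes were higher with Combo, and the single gene higher with PKCi was Gchfr. Of the genes lower with PKCi, 53 had a further bright probe set, and for 45 of them (84.9%) every further probe set gave the same direction. Of those higher with PKCi, 37 of 43 (86.0%) did. Some further probe sets lay on the same chip type. Across chip types, with each pair read in both orders, 111 readings were at least 2-fold lower with PKCi. The paired probe set had the same sign for 86 of them and was itself 2-fold lower for 42. For 111 readings at least 2-fold higher, these counts were 92 and 30. At 4-fold or more they were 16 and 9 of 22 lower readings, and 16 and 11 of 19 higher readings. Among genes whose brighter value was 4 to 8 times the floor, 4.17% were lower with PKCi and 3.51% higher, against 9.03% and 7.60% among genes at 32 times the floor or more. Differences were therefore called more often in bright genes, in both directions.

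**Figure D1:**
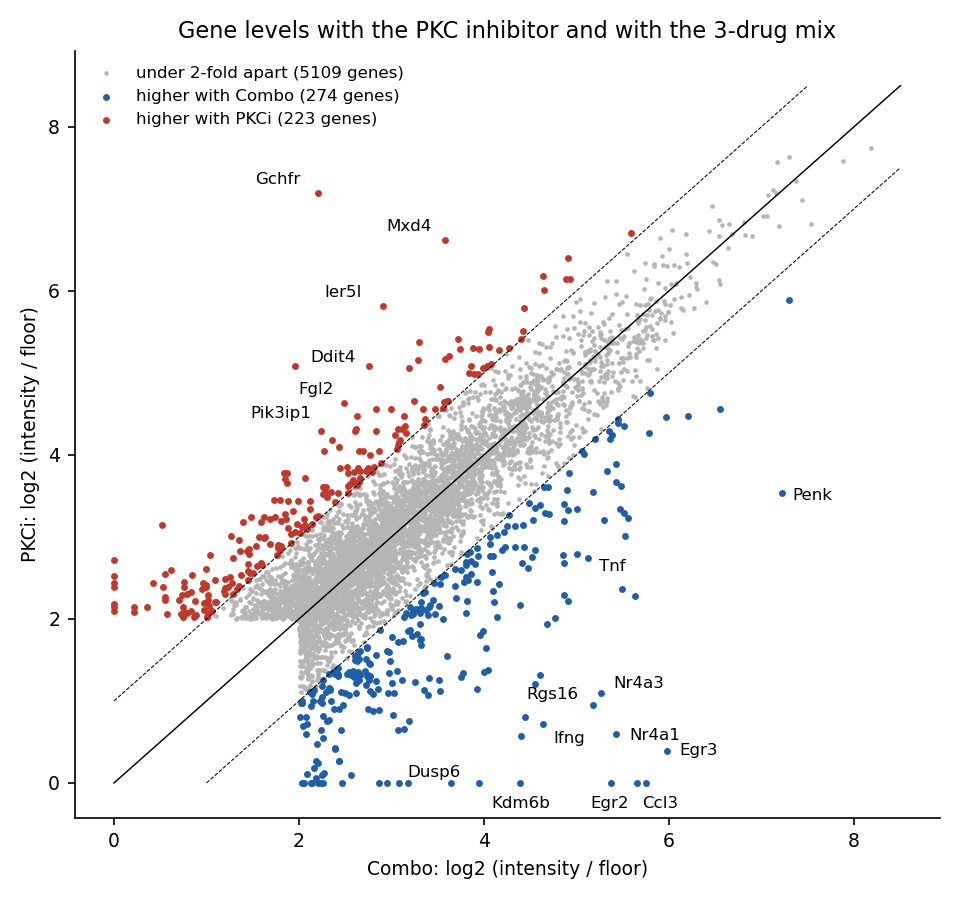
Intensity of each measured gene with PKCi (vertical axis) against Combo (horizontal axis), both as log2 of the intensity over the floor, with dashed 2-fold lines. The 274 genes lower with PKCi reach much farther from the diagonal than the 223 that are higher.

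Early transcription factors of T cell activation gave some of the widest gaps. Egr genes code for zinc finger factors that are switched on early after receptor engagement, and Egr2 and Egr3 are linked to T cell anergy. Egr3 read 121.3 in mock, 4353.8 with anti-TCR alone, 72 with PKCi and 3470.4 with Combo. The Combo value lay near that of anti-TCR alone, while the PKCi value lay below mock, and the arms differed 48.2-fold. A second Egr3 probe set gave the same order, with 5.8 for PKCi and 476.3 for Combo. Egr2 read 43.8 in mock, 3325.4 with anti-TCR alone, 41.7 with PKCi and 2116.3 with Combo, at least 41.4-fold apart. A fold is written as "at least" where the lower value lay at or below the floor. Egr1 read 86.9, 345.5, 13.4 and 639 in the same order, at least 12.5-fold apart, so its level with Combo exceeded that with anti-TCR alone. Egr4 did not follow: it read 640.1 with PKCi and 1018.1 with Combo on an r-suffixed probe set, and its further probe set leaned the other way (log2 ratio 0.14). Suffixes r, i, f, s and g mark probe sets that share sequence with other transcripts or break a design rule.

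The 3 Nr4a genes, orphan nuclear receptors induced by calcium and kinase signals, were all lower with PKCi, with a median log2 ratio of -4.16. All 3 passed the brightness limit only by their Combo values. Nr4a3 read 74.4 in mock, 4965.2 with anti-TCR alone, 149.2 with PKCi and 2676 with Combo, which is 17.9-fold. Nr4a2 read 22.7, 2536.3, 126.8 and 1245.3 in that order, 9.82-fold apart. With PKCi both lay slightly over 2-fold above mock or the floor and far below anti-TCR alone, and with Combo both lay much nearer to anti-TCR alone. Nr4a1 read 64, 3002.3, 77.3 and 2204.7, a 28.5-fold gap, but its further probe set on another chip type showed 332.9 with PKCi and 309.6 with Combo, so its probe sets disagree.

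Other regulators of transcription followed Egr2 and Egr3. Kdm6b, a histone H3 lysine 27 demethylase, read 7.3 in mock, 4085.1 with anti-TCR alone, 4.4 with PKCi and 1458.2 with Combo, at least 21.0-fold apart. Irf4, a factor needed for effector T cell growth, read 268.7, 2075.7, 206.1 and 1391 in that order (6.75-fold). Nfatc1, whose own gene is switched on by calcineurin signals, read 342, 2236.3, 276.7 and 820.2 (2.96-fold), and both its further probe sets gave the same direction. In each of these 3 genes the PKCi value lay below mock, although both values lay under the floor for Kdm6b. Bcl6, a transcriptional repressor of follicular helper cells, read 54.1 in mock, 308 with anti-TCR alone, 54.8 with PKCi and 301.2 with Combo (5.50-fold). Batf, an AP-1 family partner of Irf4, read 61.4 with PKCi and 275.6 with Combo, but only 103.4 with anti-TCR alone. Among the 10 measured AP-1 and partner genes, Batf and Atf3 were lower with PKCi and 0 were higher, against 4.89% and 3.98% of all measured genes. Batf passed the brightness limit only by its Combo value. Fosl2 read 3955.5 and 3721 on its brightest probe set, on which anti-TCR had raised it from 377.7 to 7009.8, but 619.1 and 1409.1 on a further one, which was lower with PKCi.

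**Figure D2:**
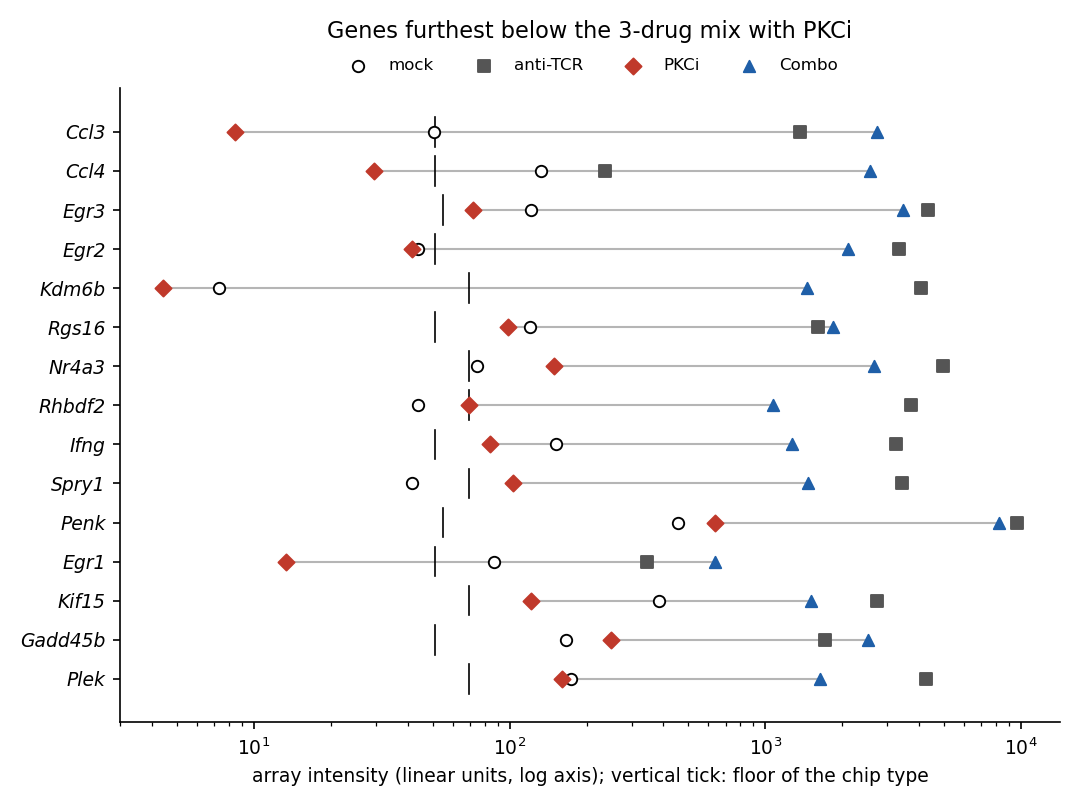
Intensities (log scale) in mock, anti-TCR alone, PKCi and Combo of the 15 genes with the largest deficit with PKCi whose further probe sets gave the same direction. In each gene the Combo point lies far above the PKCi point, and most PKCi points lie near mock.

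Secreted signals made up the next large group. Of 12 measured cytokine and chemokine genes, out of 24 on the arrays, 8 were lower with PKCi and 0 were higher. Over all measured genes 4.89% were lower and 3.98% higher. The median log2 ratio was -2.11, against 0.03 over all genes. Ccl3, Ccl4, Ifng, Csf2 and Lta passed the brightness limit only by their Combo values, and genes dim in both arms are left out of the 12. The inflammatory chemokine Ccl3 read 50.5 in mock, 1362.6 with anti-TCR alone, 8.4 with PKCi and 2749.5 with Combo. Its relative Ccl4 read 132.8, 236.9, 29.6 and 2571.3 in that order. The arms were at least 53.8-fold apart for Ccl3 and at least 50.3-fold for Ccl4, the widest gaps among genes lower with PKCi, and for both genes Combo gave more than anti-TCR alone. Ifng, the macrophage-activating cytokine of Th1 cells, read 151.3, 3260.6, 84.1 and 1272.6 (15.1-fold). Csf2, a growth factor of myeloid cells, read 21.6, 1671.5, 9.7 and 395 (at least 7.73-fold). For these cytokines Combo also lay below anti-TCR alone, but by less than PKCi did. Tnf had another pattern, with 334.5 in mock, 132.8 with anti-TCR alone, 340.9 with PKCi and 1786 with Combo, so it was the Combo array that stood out. Lta, read on an s-suffixed probe set, Tnfsf11 and Csf1 were lower with PKCi too, with log2 ratios of -2.14, -2.07 and -1.53.

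Some secreted products were low in both arms, and the genes given next were chosen after their values were seen. Xcl1 read 2472 with anti-TCR alone, 36.3 with PKCi and 141.4 with Combo, and Ccl9 read 531.8, 22.6 and 20.9 in the same order. The Th2 cytokine Il5 read 480.9, 40.3 and 6.5. Both arms of these genes lay far below anti-TCR alone, and neither reached the level at which the direct comparison counts a gene as measured. For Ccl1 the probe sets disagreed: the brightest read 1982.6, 30 and 102.4, and a further one, g-suffixed, read 438.3, 72.4 and 685.7, a log2 ratio of PKCi to Combo of -3.24. Il2 lay far below the floor throughout, at 2.6 with anti-TCR alone.

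Feedback regulators of kinase signalling were split. Spry1, an inhibitor of receptor signalling to Ras and ERK, read 41.7 in mock, 3428.2 with anti-TCR alone, 103.2 with PKCi and 1464.5 with Combo (14.2-fold). Dusp6, a phosphatase that acts on ERK and is itself induced by ERK signalling, read 13.1, 634.4, 12.1 and 431.6, at least 8.45-fold apart, with a further probe set in the same direction. Thus Dusp6 stood nearer to anti-TCR alone in the arm that held a MEK inhibitor than in the arm that held a PKC inhibitor. Dusp5, also induced by ERK, differed little, with 2455 for PKCi and 2020.3 for Combo between 1567.3 in mock and 3669.5 with anti-TCR alone. Of the 12 measured of 24 Dusp genes, Dusp6 was lower with PKCi, the f-suffixed Dusp23 was higher (487 against 229.9), and 10 were within 2-fold. The p38 and ERK phosphatase gene Dusp1 was among those, at 239.9 with PKCi and 131.8 with Combo. Across all measured genes, 4.89% were lower with PKCi and 3.98% higher. Spry1 was the 1 Spry gene measured of 4.

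Some genes listed as responses to ERK or p38 were lower with PKCi than with Combo, the arm that held the MEK and p38 inhibitors. Of 15 measured MEK and ERK response genes, 9 were lower with PKCi than with Combo and 0 were higher, with a median log2 ratio of -1.58, or -0.65 with each gene averaged over its probe sets. Over all measured genes 4.89% were lower and 3.98% higher. The 9 were Egr1, Egr2, Egr3, Spry1, Dusp6, Ier3, the Egr corepressor Nab2, Phlda1 and Spred1. Of these, Egr1, Egr2, Egr3, Spry1, Dusp6 and Spred1 passed the brightness limit only by their Combo values. Ier3, a stress-induced survival gene, read 406.8 in mock, 3532.2 with anti-TCR alone, 480.9 with PKCi and 2408 with Combo (5.01-fold). Of 9 measured genes of the p38 pathway, 3 were lower with PKCi and 0 higher. They were the f-suffixed Gadd45b, an activator upstream of p38, and the mRNA decay factors Zfp36l1 and Zfp36 (s-suffixed), whose protein products bind AU-rich messages. Gadd45b read 166.6, 1714.5, 248.3 and 2536 in the same order (10.2-fold), and Zfp36l1 read 438.4, 1494.1, 328.1 and 1482.9 (4.52-fold). For both, Combo was close to or above anti-TCR alone. No value here measures kinase activity, and how fully each drug blocked its target was not tested.

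NF-kB genes leaned the same way with smaller gaps. Of 13 measured, 6 were lower with PKCi than with Combo (Tnf, Bcl3, Ier3, Icam1, Nfkb2 and Relb) and 0 were higher. Bcl3 and Icam1 passed the brightness limit only by their Combo values. Over all measured genes 4.89% were lower and 3.98% higher. The median log2 ratio was -0.42, or -1.04 without suffixed probe sets. Of the 6, only Bcl3 and Ier3 lay 2-fold below anti-TCR alone with PKCi. Nfkb2 read 79.1 in mock, 436.5 with anti-TCR alone, 310.5 with PKCi and 657.3 with Combo. Relb read 75.7, 425.1, 255.5 and 525.2 in that order. Bcl3, a nuclear partner of NF-kB subunits, read 52 in mock, 761.5 with anti-TCR alone, 160 with PKCi and 828.8 with Combo (5.18-fold). Its further probe set read 198.8 with PKCi and 325.6 with Combo, a log2 ratio of -0.71. Icam1, an adhesion molecule, read 58.4 with anti-TCR alone, 35.2 with PKCi and 243.9 with Combo, at least 4.77-fold apart. The probe sets of Nfkbia, an inhibitor of NF-kB, disagreed. The brightest, f-suffixed, stood at 10479 with PKCi and 7898.7 with Combo, while the further ones were lower with PKCi, at 1026.5 and 2835.1 and at 450 and 1020.4. Tnfaip3, another inhibitor of NF-kB, stood at 589.4 and 646.9, above its 198.9 with anti-TCR alone in both arms. Of the 11 measured genes of the PKC to NF-kB relay, only Dgka differed 2-fold.

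Surface receptors and genes linked to anergy were mixed. The inhibitory receptors Lag3 (122.3 with PKCi, 585.1 with Combo, 4.78-fold) and Pdcd1 (124.4 and 541.4, 4.35-fold) and the costimulatory receptor Tnfrsf4 (469.2 and 1482.5, 3.16-fold) were lower with PKCi, each within 2-fold of mock. Ctla4, another inhibitory receptor, went the other way: it read 659.6 in mock, 373.3 with anti-TCR alone, 1627.6 with PKCi and 731.5 with Combo (2.23-fold). Of 19 measured anergy-linked genes, 8 were lower with PKCi and 3 were higher, with a median log2 ratio of -0.73. The shares over all measured genes were 4.89% lower and 3.98% higher. Egr2, Egr3, Nr4a1, Lag3, Ndrg1 and Nfatc1 passed the brightness limit only by their Combo values. Dgka and Nedd4 passed it only by their PKCi values. The 8 included Ndrg1, at 100.6 in mock, 801.7 with anti-TCR alone, 129.6 with PKCi and 698.7 with Combo (5.39-fold), together with Cblb, a ubiquitin ligase that restrains T cell signalling (log2 ratio -1.36). The 3 that were higher were Dgka, Rgs2 and the ubiquitin ligase gene Nedd4. Dgka codes for the kinase that removes diacylglycerol, the activator of PKC, and read 301.9 in mock, 124.9 with anti-TCR alone, 352.4 with PKCi and 140.3 with Combo (2.51-fold). Rgs2, which turns off G protein signals, read 706.8, 374.7, 1834.8 and 608.4 (3.02-fold).

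Cytokine signalling and adaptor genes added further members. Of 19 measured Jak and Stat genes, 6 were lower with PKCi than with Combo and 1 was higher. Over all measured genes 4.89% were lower and 3.98% higher. Among the 6 were the Stat target genes Cish (196.5 with PKCi and 1313.6 with Combo, 6.68-fold) and Pim1 (516.6 and 2264.4, 4.38-fold). Pim1 read 1158.2 in mock and 991.3 with anti-TCR alone, so its PKCi value lay below both and its Combo value above both. The 1 that was higher was Ifngr1, a subunit of the interferon gamma receptor (1202.9 and 363.6, 3.31-fold). Irf8 (111.7 and 520.4), Gbp3 (129.7 and 402.1) and Irf4 were the 3 of 11 interferon response genes that were lower. Of 16 measured genes of the T cell receptor complex and its near partners, the adaptor gene Lcp2 was 3.42-fold lower (651.4 in mock, 2878.8 with anti-TCR alone, 343.5 with PKCi and 1174.9 with Combo) and the kinase gene Fyn 2.09-fold lower. Among the 15 largest deficits outside these lists were Rgs16, a brake on G protein signals, at 98.6 and 1843.7 (18.7-fold), and Rhbdf2, a partner of the protease that sheds Tnf, at 69.5 and 1072.8 (at least 15.4-fold). Plek, a PKC substrate, read 160.7 and 1632.6 (10.2-fold). The f-suffixed Penk, the enkephalin precursor, read 635.5 and 8224.8 (12.9-fold), and the f-suffixed mitotic kinesin gene Kif15 121.4 and 1512.6 (12.5-fold).

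The difference between the arms followed the size of the response to anti-TCR. Anti-TCR raised 659 genes (11.4% of those measured) at least 2-fold over mock, and lowered 808 (13.9%). These comparisons share the mock and anti-TCR arrays, and the counts describe them without a test. Of the 532 raised genes that were measured in the arms, 141 (26.5%) were lower with PKCi than with Combo and 10 (1.88%) higher, with a median log2 ratio of -0.39. Of the 4368 measured genes that anti-TCR did not change 2-fold, 124 (2.84%) were lower with PKCi and 106 (2.43%) higher, with a median of 0.01. The share that was lower with PKCi was 12.4% of 362 genes raised 2- to 4-fold, 42.3% of 104 raised 4- to 8-fold, 70.3% of 37 raised 8- to 16-fold and 89.7% of 29 raised at least 16-fold. Genes lost in both arms are not counted as measured and so are missing from these shares. Over all genes raised, measured in the arms or not, the shares were 10.4% of 431, 29.5% of 149, 57.8% of 45 and 76.5% of 34. The median log2 ratio went from -0.26 in the first of these ranges through -0.79 and -1.32 to -2.95 in the last. At 8-fold induction or more, 0 genes were higher with PKCi. A larger response leaves more room between mock and anti-TCR alone, so a fixed 2-fold limit is easier to pass there. How much of the rise in these shares comes from this was not tested.

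Genes that anti-TCR lowered gave the opposite direction. Of the 706 measured in the arms, 107 (15.2%) were higher with PKCi than with Combo and 9 (1.27%) lower, with a median log2 ratio of 0.38. Among genes lowered 2- to 4-fold, 9.74% of 585 were higher with PKCi, and among genes lowered 4- to 8-fold, 39.5% of 114 were. Over all genes lowered, measured in the arms or not, these shares were 8.70% of 655 and 31.0% of 145. Only 7 measured genes were lowered further, of which 5 were higher with PKCi. The fixed 2-fold limit bears on these shares in the same way.

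**Figure D3:**
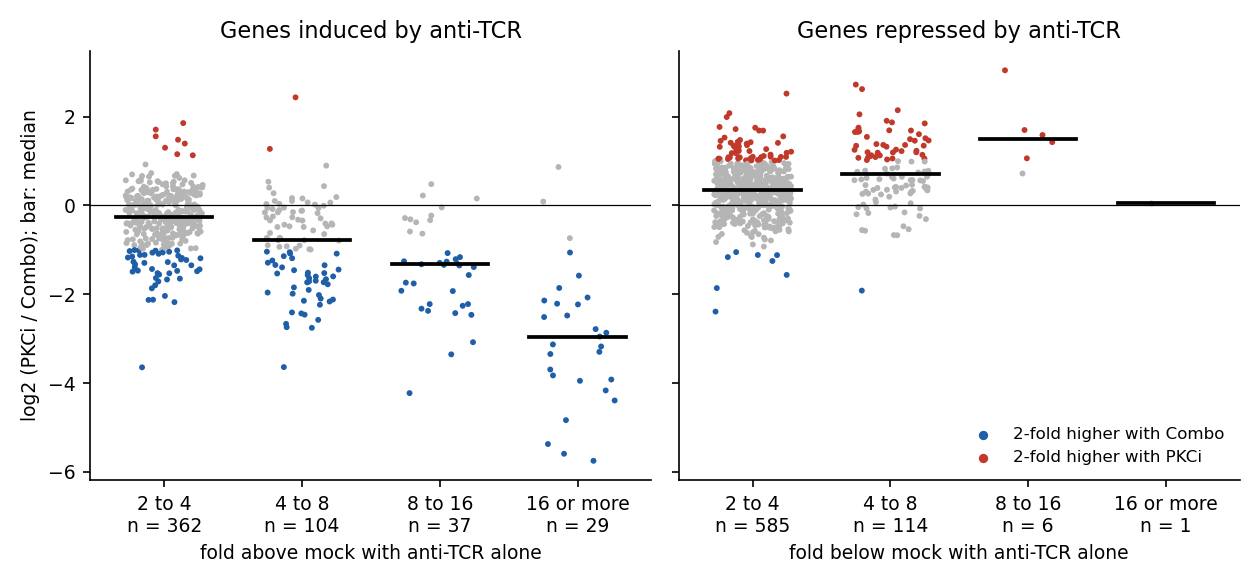
Log2 ratio of PKCi to Combo of each measured gene (points) that anti-TCR raised (left) or lowered (right), by the size of that response in fold from mock, with the median as a bar. Among genes measured in the arms, the share at least 2-fold lower with PKCi goes from 12.4% to 89.7% as induction grows. The share higher with PKCi is 39.5% among measured genes lowered 4- to 8-fold.

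Set against anti-TCR alone, each arm's own counts were as follows. With PKCi, 565 genes (9.75%) were lower than with anti-TCR alone and 827 (14.3%) were higher. With Combo, 307 (5.46%) were lower and 447 (7.95%) higher. Of the 659 induced genes, 164 (24.9%) were still 2-fold above mock with PKCi and 290 (44.0%) with Combo. Of the 808 repressed genes, 81 were still 2-fold below mock with PKCi and 236 with Combo. Much was shared: 176 induced genes were lowered by both treatments, and 262 by neither. Other genes were lowered in 1 arm only, 127 of them without a called 2-fold difference between the arms. For 88 induced genes PKCi gave at least 2-fold less than anti-TCR alone, Combo did not, and the arms differed 2-fold, while the reverse held for 6. The 6 became 0 with a brightness limit of 8 floors, 19 with 2 floors, 2 with each gene averaged over its probe sets and 1 at 3-fold. A further 47 induced genes lower with PKCi than with Combo lay 2-fold below anti-TCR alone in both arms. With PKCi, 74 of the 88 were within 2-fold of mock, and with Combo 12 were. The 88 were picked for a lowered PKCi value and a higher Combo value, so these counts follow partly from the selection. In 14 of the 88, Egr1, Ccl3 and Gadd45b among them, Combo was at or above anti-TCR alone. Of the 22 of these 88 with a further bright probe set, 21 had every such probe set in the same direction.

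Promoters of 4 genes that part the arms are shown because their products illustrate these groups: Egr2, Ier3 and Zfp36 (lower with PKCi) and Mxd4 (higher with PKCi). Each is the stretch of 250 bases before the most upstream RefSeq start on GRCm38.p6, written 5′ to 3′ on the gene's strand, with capitals marking matches to any of 6 motifs searched on both strands. The motifs were the cyclic AMP response element TGACGTCA, the AP-1 site TGANTCA, the E-box CACGTG, the Egr site GCGNGGGCG, the CArG box bound by serum response factor and the kB site bound by NF-kB. Egr2 (chr10:67535249-67535498, plus strand) holds overlapping kB matches and an E-box, Ier3 (chr17:35821463-35821712, plus strand) a kB match, Zfp36 (chr7:28379229-28379478, minus strand) an Egr match followed by a CArG box, and Mxd4 (chr5:34187711-34187960, minus strand) an E-box.
Egr2: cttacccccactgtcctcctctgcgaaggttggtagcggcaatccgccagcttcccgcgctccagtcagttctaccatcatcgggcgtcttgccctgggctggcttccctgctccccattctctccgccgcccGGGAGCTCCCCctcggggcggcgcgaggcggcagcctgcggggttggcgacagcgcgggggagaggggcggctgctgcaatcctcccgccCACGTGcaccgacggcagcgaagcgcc
Ier3: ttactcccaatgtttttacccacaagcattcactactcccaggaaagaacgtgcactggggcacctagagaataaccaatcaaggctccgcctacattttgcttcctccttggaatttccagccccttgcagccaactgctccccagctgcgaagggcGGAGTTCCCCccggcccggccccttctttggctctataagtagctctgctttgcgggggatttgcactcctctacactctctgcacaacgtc
Zfp36: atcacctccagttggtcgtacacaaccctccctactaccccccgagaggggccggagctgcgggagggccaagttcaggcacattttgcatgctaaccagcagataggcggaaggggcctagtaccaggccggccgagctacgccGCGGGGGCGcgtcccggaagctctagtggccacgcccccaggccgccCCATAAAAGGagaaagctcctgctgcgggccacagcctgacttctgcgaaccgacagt
Mxd4: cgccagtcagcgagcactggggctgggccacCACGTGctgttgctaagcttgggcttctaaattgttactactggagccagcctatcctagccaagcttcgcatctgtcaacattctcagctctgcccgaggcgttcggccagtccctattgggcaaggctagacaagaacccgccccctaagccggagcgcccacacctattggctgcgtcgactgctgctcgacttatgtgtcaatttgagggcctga

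The share of promoters with each motif is given as a description. RefSeq promoters were matched for 75 of the 88 induced genes lowered by PKCi and not by Combo. A kB match stood in 9 of these 75, or 12%, against 8.70% of the promoters of 4576 measured genes and 7.03% of all 27025 promoters. An E-box stood in 9.33% of them (8.94% and 6.04%) and an Egr site in 8.0% (9.38% and 4.63%). The cyclic AMP element, the AP-1 site and the CArG box were each in 2 of the 75, or 2.67%, against 2.91%, 3.67% and 1.11% of measured genes and 1.60%, 6.85% and 1.41% of all promoters. A match is a run of letters in this window, not a site shown to be bound.

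Among genes higher with PKCi were some with known roles as brakes on growth signals, namely Mxd4, Mxi1, Ddit4 and Pik3ip1. Other genes that restrain signalling were lower with PKCi, such as Spry1, Dusp6 and Cblb, with log2 ratios of -3.83, -3.08 and -1.36. Mxd4, a repressor that competes with Myc for its partner Max, read 3067.6 in mock, 267.7 with anti-TCR alone, 5411.7 with PKCi and 655.6 with Combo on an s-suffixed probe set (8.25-fold), and both further probe sets gave the same direction. Mxi1, a repressor of the same family, read 402.7, 216.1, 889.3 and 430.1 (2.07-fold). They were the 2 of 8 measured genes of the Myc network that were higher, and the f-suffixed spermidine synthase gene Srm was the 1 that was lower, although its further probe set gave a log2 ratio of 0.64. All measured genes gave shares of 3.98% higher and 4.89% lower. Ddit4, an inhibitor of mTOR signalling induced by stress, read 415.3, 300.9, 1727.2 and 345.7, a log2 ratio of 2.32. The Combo value of Ddit4 lay between mock and anti-TCR alone, and the PKCi value far above both. Pik3ip1, a negative regulator of PI3 kinase that quiescent T cells express, read 935.9, 121.8, 1360.8 and 328 on an i-suffixed probe set (4.15-fold), and its further probe set gave a log2 ratio of 2.53. Ier5l read 338.3, 264.5, 3102.8 and 411.9 (7.53-fold). Fgl2, a secreted immune regulator, read 1190.2, 278, 1270.2 and 287 (4.43-fold). For Mxd4, Pik3ip1 and Fgl2, anti-TCR lowered the gene, the PKCi value was above mock, and the Combo value lay between anti-TCR alone and mock.

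Several factors of development and single transcripts completed this side. Foxq1 read 294.7 in mock, 38.2 with anti-TCR alone, 363.2 with PKCi and 50.4 with Combo, at least 6.60-fold apart, and Zfpm2, a partner of Gata factors, read 497.3, 70.6, 486.7 and 79.1 (6.15-fold). Twist2, a basic helix-loop-helix repressor, read 59, 63.3, 225.7 and 50.6 (at least 4.42-fold). Of these values only that with PKCi passed the brightness limit of 204.4. Vps37b, a sorting protein of the endosome, likewise stood out with PKCi alone, at 268.2 against 47.6 with Combo and 7.9 in mock. Igsf5 (315.3 and 13.4) and Trgv4, a T cell receptor gamma segment (700.3 and 186.7), returned to about mock level or toward it with PKCi, and not with Combo. Tmem250-ps (293.1 and 43.1) and the unnamed transcripts C730049O14Rik (2887 and 683.1), 2700069I18Rik (234.9 and 39.9) and 1810035K13Rik (297.5 and 51.8) were also among the 15. Gchfr, which regulates the enzyme that starts tetrahydrobiopterin synthesis, gave the widest gap of all genes higher with PKCi, 31.9-fold. It read 6187.2 in mock, 8033.5 with anti-TCR alone, 8059.9 with PKCi and 252.7 with Combo, so a single low array value on an r-suffixed probe set makes the gap, and no further bright probe set reads the gene.

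**Figure D4:**
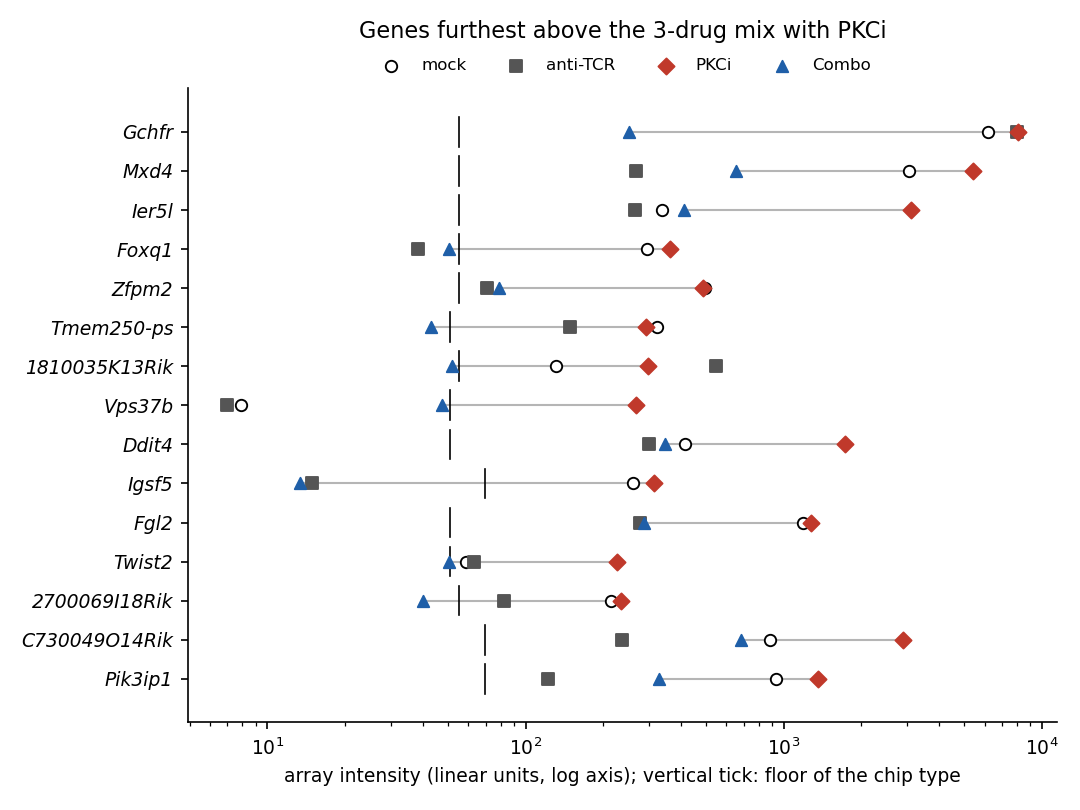
Intensities (log scale) in mock, anti-TCR alone, PKCi and Combo of the 15 genes with the largest excess with PKCi over Combo whose further probe sets gave the same direction. For Foxq1, Zfpm2 and Fgl2 the PKCi point lies near mock and the Combo point near anti-TCR alone, for Mxd4 and Pik3ip1 the Combo point lies between anti-TCR alone and mock, and for Gchfr only the Combo point is low.

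Repressed genes parted the arms as the induced ones did. For 80 of the 808, PKCi was called 2-fold above anti-TCR alone, Combo was not, and the arms differed 2-fold, with a median log2 ratio of 1.29. A call needed the brighter value to reach 4 floors, so a dimmer Combo value counted as not called. Sesn1 and Nedd4 are such cases, with Combo 2.47-fold and 3.10-fold above anti-TCR alone. With PKCi 76 of the 80 were within 2-fold of mock, and with Combo 21 were. The 80 were picked for a raised PKCi value and a lower Combo value, so these counts follow partly from the selection. By the same calls, the reverse held for 7 genes, while 213 were held up by both treatments and 298 by neither. The remaining 210 were held up in 1 arm only, without a called 2-fold difference between the arms. Of the genes that Foxo and Klf2 factors keep on in quiescent T cells, 4 of 16 measured were higher with PKCi (Pik3ip1, Irs2, Slfn1 and Sesn1), 1 was lower (Bcl6), and the median log2 ratio was 0.40. Shares over all measured genes were 3.98% higher and 4.89% lower. Irs2 and Sesn1 passed the brightness limit only by their PKCi values, and Bcl6 only by its Combo value. Sesn1, an inhibitor of mTOR signalling, read 350.7 in mock, 70.2 with anti-TCR alone, 351.9 with PKCi and 173.1 with Combo (2.03-fold). Irs2, an adaptor of the insulin receptor, read 84.2, 102.5, 377.8 and 147.9 (2.55-fold).

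Few genes moved back from the anti-TCR level with Combo and not with PKCi once the arms also had to differ 2-fold. At 2-fold, Combo moved back 208 induced and 262 repressed genes, and 176 and 213 of these moved back with PKCi too. The genes given next met the added 2-fold demand. The 6 induced genes lowered by Combo and not by PKCi were 1810035K13Rik, Adamtsl4, the mRNA cleavage factor Pcf11, the translation factor Eif3i, the ribosome assembly factor Nsa2 and Ciapin1. With anti-TCR alone they read between 283.5 (Pcf11) and 610.6 (Ciapin1), and with Combo between 51.8 (1810035K13Rik) and 150.5 (Ciapin1). Eif3i and Ciapin1 were read on r-suffixed probe sets, and without suffixed probe sets the log2 ratio of PKCi to Combo of Ciapin1 was -0.27, the opposite direction. On the repressed side, the elongation factor Eef2 read 1069.5 in mock, 521.8 with anti-TCR alone, 677.1 with PKCi and 2457 with Combo (3.63-fold), so that Combo passed the mock level, and its further probe set gave the same direction. The methyltransferase Smyd3 read 244.9, 45.3, 66.2 and 249.9 in that order (3.77-fold).

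Most measured genes of growth and metabolism differed by less than 2-fold. Beside the counts that follow, 4.89% of all measured genes were lower with PKCi and 3.98% higher. Of 18 measured genes of nucleolar ribosome assembly, 2 were lower with PKCi (the f-suffixed Nop58 and Nop16) and 0 higher, but 17 of the 18 had a log2 ratio below 0, with a median of -0.46, or -0.79 with each gene averaged over its probe sets. All 14 measured heat shock and chaperone genes had a ratio below 0 on the probe sets read, with a median of -0.45, and Hspa1b (141.3 and 346.2) and Hsp90aa1 (1377.1 and 2835.7) reached 2-fold. The 19 cytosolic ribosomal protein genes had a median of -0.34 and 0 reached 2-fold on the probe sets read, the widest being Rpl13 at 165.9 and 327.1. Further probe sets of Rplp0 (717.9 and 1538.9) and Rps28 (f-suffixed, 78.1 and 226.6) did reach it, lower with PKCi. Of 34 measured ribosomal protein probe sets that carry several symbols, and so stand outside the gene counts, 5 were lower with PKCi and 0 higher, with a median of -0.18. Of 15 measured glycolysis genes and targets of the oxygen-sensing factor Hif1a, 3 were lower with PKCi: the proline hydroxylase gene P4ha1 (131.4 and 425.4), the f-suffixed glucose transporter Slc2a3 (257.4 and 602.4) and the g-suffixed phosphofructokinase Pfkp (169.6 and 445.4). The amino acid transporter Slc7a5 (163.7 and 509.7) and the one-carbon enzyme Mthfd2 (623.8 and 1284.7) were lower among 15 measured genes of the Atf4 response, Ddit4 was higher, and the median was 0.04, or -0.52 with each gene averaged over its probe sets. The sterol genes Hmgcs1 (127.5 and 341.4) and Stard4 (608.1 and 1404.1) were lower and the f-suffixed desaturase gene Scd2 (408.3 and 151.2) higher, of 11 measured. Of 12 measured genes of nucleotide and one-carbon synthesis, Mthfd1 was higher with PKCi (223.3 and 99.8) and Tkt lower (206.9 and 448.7). Nop58, Nop16, Hspa1b, P4ha1, Pfkp, Slc7a5 and Hmgcs1 passed the brightness limit only by their Combo values. Scd2 and Mthfd1 passed it only by their PKCi values.

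**Figure D5:**
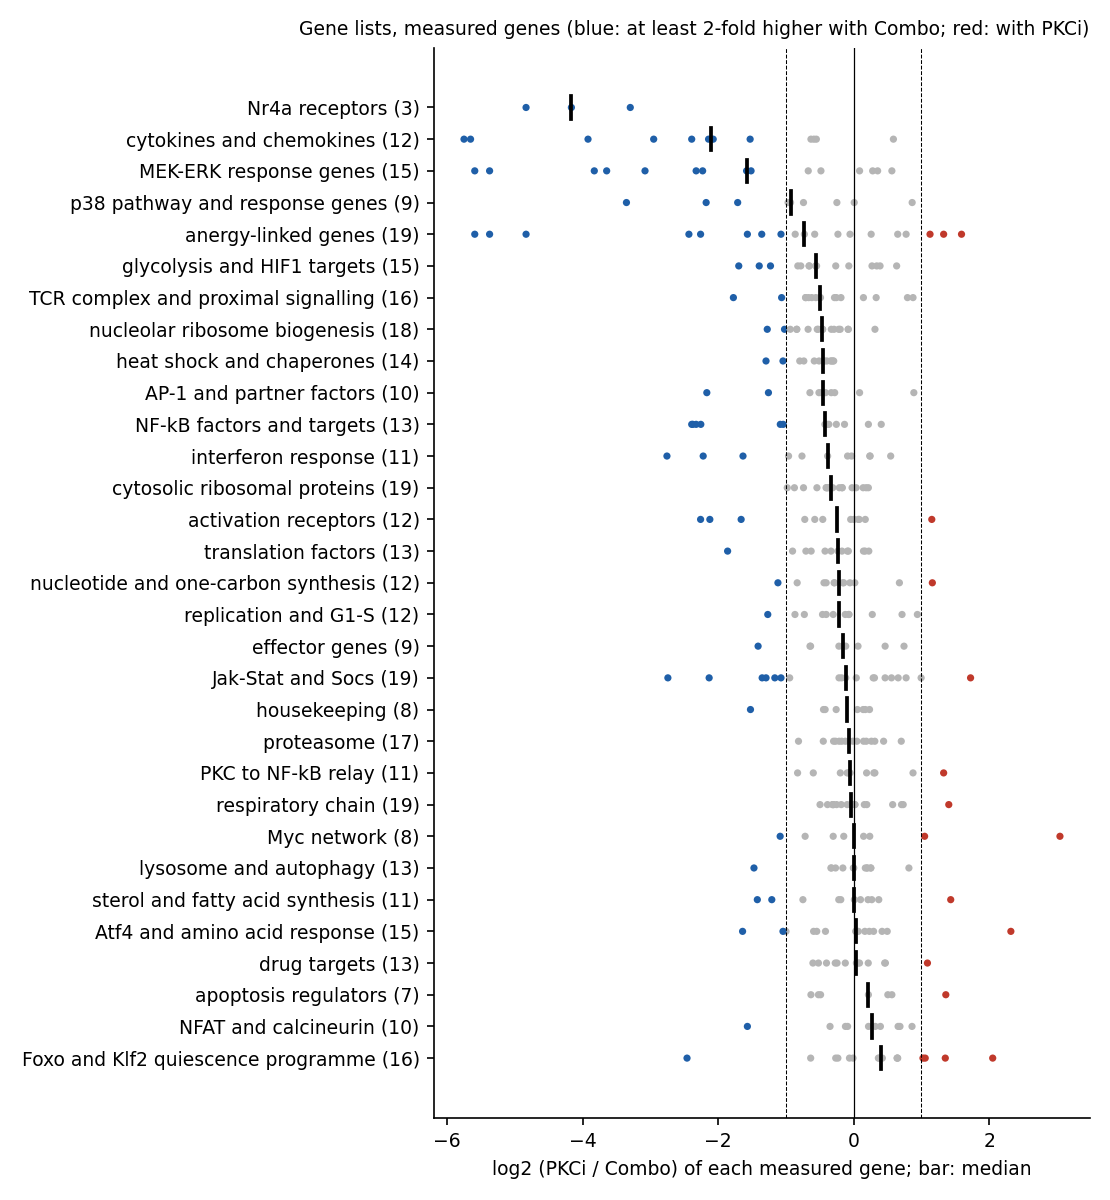
Log2 ratio of PKCi to Combo of each measured member of the gene lists (points) with the median of each list (bar). The Nr4a, cytokine and MEK-ERK response lists lie lowest, at medians of -4.16, -2.11 and -1.58, and the quiescence list lies above 0 at 0.40.

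Other lists stayed near the middle of all measured genes, of which 4.89% were lower with PKCi and 3.98% higher. Proteasome genes had 0 of 17 measured at 2-fold with a median log2 ratio of -0.07, the respiratory chain 1 of 19 (Ndufs1, higher with PKCi) with -0.03, and lysosome and autophagy genes 1 of 13 with 0.00. NFAT and calcineurin genes had 1 of 10, Nfatc1, and translation factors 1 of 13, Eef2. Of 12 measured replication genes, only the r-suffixed Cdc45 was 2-fold lower with PKCi, and of 9 effector genes only the g-suffixed Nkg7 (3249.2 and 8631.9). The r-suffixed apoptosis gene Bbc3, which Foxo factors can induce, was higher with PKCi (438.1 and 170.6). Of 13 measured genes for the drug targets and close partners, only Mtor itself differed, at 156.1 in mock, 171.4 with anti-TCR alone, 302 with PKCi and 141.9 with Combo (2.13-fold). Prkch, the PKC-eta gene, read 1148.3, 3662.7, 1410.8 and 1671, so both arms lost most of its induction. Of 8 housekeeping genes, the f-suffixed Tubb5 was 2-fold lower with PKCi (979.6 and 2813.2).

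Calls next to the limits show how narrowly some were made. Commd2, at 185.3 and 204.5, just passed the brightness limit, and Thoc2, at 266.3 and 277.9 on a chip type with a higher limit, just missed it. Pkd1 (128.1 and 256.5) was just over 2-fold and Bcl11b (661.8 and 331.1) just under.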

How the data were processed

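Array intensity values were used as the authors deposited them, linear and with no scale stated. Their scaling method is not given in the sources consulted. Samples were grouped by title, with 1 array per treatment and chip type, so neither a test nor an SD over cultures could be had. The floor, below which values were raised before log2 was taken, was the median of all values on the 5 arrays of each chip type, 51.1 (A), 69.5 (B) and 55 (C). A gene is 1 symbol of the platform annotation (29131 of 36701 probe sets had exactly 1), read on its brightest probe set by mean over the 5 treatments. It was measured if the brighter value reached 4 floors, and called at 2-fold. Induced and repressed genes were those called between anti-TCR alone and mock. Genes named are the 15 widest in each direction whose further bright probe sets agree, up to 10 (induced) or 5 (repressed) of each 1-arm class, up to 4 list members per direction, and the Egr, Nr4a, Dusp and Spry genes. Other named genes were picked with their values in view. The members and the lists were chosen with earlier results of these data known. The scripts ran in Python 3.11.15 with pandas 2.3.3 and were tested on simulated data. Alternatives were another floor, minimum, scaling, fold, probe set rule and suffix rule.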

Additional observations from a re-analysis of the deposited data

Results flagged for a closer look

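A probe set on chip type A without a gene symbol lies outside the gene counts and showed one of the widest gaps between the arms. It read 122.5 in mock, 3174.9 with anti-TCR alone, 92.4 with PKCi and 2409.4 with Combo, a log2 ratio of PKCi to Combo of -4.70. Of 1068 measured probe sets with no symbol, 61 were at least 2-fold lower with PKCi and 40 higher.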

How the results depend on the processing

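No paired analysis was possible because each treatment had 1 array on each chip type, and chip types are not replicates. Main counts were 223 genes higher with PKCi and 274 higher with Combo. With a minimum of 8 floors they were 134 and 168, with 2 floors 351 and 426, with each gene averaged over its probe sets 125 and 166, and at 3-fold 54 and 110. Induced genes lowered by PKCi and not by Combo (88) ranged from 63 to 116, and those lowered by Combo and not by PKCi (6) numbered 0, 19, 2 and 1 under these 4 settings. Induced genes lowered by neither (262) numbered 165 with 8 floors, 170 with averaging and 141 at 3-fold, and those lowered by both (176) 117 with averaging and 57 at 3-fold. Repressed genes held up by PKCi and not by Combo (80) numbered 50 with 8 floors, 42 with averaging and 20 at 3-fold, and by Combo and not by PKCi (7) 4, 18, 1 and 1 under the 4 settings in the order given. Without suffixed probe sets the log2 ratio of PKCi to Combo of Atp6v1h was 0.00773 and the log2 ratio of PKCi to Combo of Ciapin1 was -0.27, both with the sign changed. The other 48 counts stayed within 1.5 times the main count. Dim genes, near the floor, have only bounds.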
